A study of Mus musculus with 7 samples.

Results

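Ion channel genes of the voltage-gated families were examined in embryonic mouse retina cells in which the histone methyltransferase gene Setd1a was knocked down. Members were all genes whose symbol begins with Kcn followed by letters and a number, the Scn genes ending in a or b, the Cacna, Cacnb and Cacng genes, and the Hcn genes. This rule uses names and no measured value. It took 93 of the 16143 genes listed: 61 of the potassium family, 22 of the calcium family, 6 of the sodium family and 4 of the HCN family.

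Voltage-gated channels are membrane pores that open or close as the voltage across the membrane changes. Sodium and calcium channels let in cations that depolarise a neuron or trigger transmitter release, potassium channels let out the current that repolarises it, and HCN channels pass a depolarising current that begins on hyperpolarisation. Most pores work together with auxiliary subunits that set their number at the membrane and the speed of their gating. In the retina, ganglion cells and some amacrine cells fire sodium spikes, whereas rods, cones and bipolar cells signal by graded voltages that HCN, potassium and calcium channels shape at the inner segment and the ribbon synapse. The name of the set is wider than its physiology: 18 of the 93 members belong to the inward rectifier (Kcnj), tandem-pore (Kcnk) and small-conductance calcium-activated (Kcnn) genes, whose channels are not opened by voltage, and several Cacng genes code for proteins best known as partners of AMPA-type glutamate receptors.

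The cells came from retinas of ICR mice, an outbred stock, explanted on embryonic day 17.5 and cultured for 2 days. The control group (n = 3 libraries) received a control plasmid and the shKmt2f group (n = 4 libraries) received a plasmid that makes a short hairpin RNA directed at Kmt2f, another name of Setd1a; both received an EGFP plasmid, and EGFP-positive cells were sorted before RNA extraction. Setd1a codes for an enzyme that methylates lysine 4 of histone H3, a mark found at active promoters. Sorting kept whatever cells had taken up the plasmids, so each library mixes retinal cell types. The labels do not say that the libraries had separate animals or cultures as their source, and the p-values then measure only the spread among these libraries, which may be technical. In such bulk samples a change in the number of cells of a type and a change of RNA per cell cannot be told apart.

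Levels are in TPM (a share of the library scaled by transcript length, so that levels of different genes can be set side by side), summed over the listed transcripts of a gene. TPM totals lay between 991445 and 992309 per library, and the sequencing depth is unknown. The longest transcript of the targeted gene Setd1a, of 6487 bases, stood in the shKmt2f libraries at 46.4% of its control mean (exact permutation p = 0.0286, two-sided, the smallest that 3 against 4 libraries allow). Its level was low, with means of 0.830 TPM in controls and 0.385 TPM in shKmt2f libraries, and under 1 TPM in every library. The 3 shorter Setd1a transcripts, of 315, 389 and 730 bases, stood at 74.2%, 92.4% and 80.8% of control, with overlapping values (the same test gave 0.257, 0.914 and 0.886). Those of 315 and 389 bases held more TPM, with control means of 4.92 and 2.75 TPM. For Setd1a the permutation test used log2(TPM + 0.1), and for the channel genes log2(TPM + 1). The limma test used log2(TPM + 1) of genes that reached 1 TPM in at least 3 libraries, and fold changes are on that scale, which understates the change of low genes; a gene is called at an adjusted p under 0.05 over all 12456 genes tested. Over those genes 14.1% were called, 10.4% as higher and 3.69% as lower in shKmt2f libraries. Median-ratio scaling, which sets the typical gene equal between libraries, moved the median fold change of all genes by -0.10, from 0.09 to -0.01, and the share of higher genes among the calls from 73.8% to 57.9%. The libraries of the groups also differed in how a gene's level followed its GC content. Per 10 points of GC, the slopes were 0.25, -0.04 and 0.41 in log2 units in control replicates 1 to 3 and between -0.18 and -0.12 in the shKmt2f libraries.

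Levels differed widely among the channel genes, and many were hardly detected. Of the 93 members, 42 passed the filter on low values and 51 did not. In every library 31 members stood at 1 TPM or more, 9 had a mean of 10 TPM or more, and 18 had a mean under 0.1 TPM. The summed level of all 93 genes was 318, 358 and 429 TPM in the control libraries and 417, 465, 404 and 394 TPM in the shKmt2f libraries. These sums overlapped between the groups.

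Of the 42 tested members, 10 were higher in shKmt2f libraries (23.8%, beside 10.4% of all genes tested) and 0 were lower (beside 3.69%). Without adjustment 15 of the 42 had a limma p under 0.05, all of them with higher shKmt2f levels. The share of all genes with such a p was not taken. This count, and the counts of unadjusted p by group of genes further on, therefore have no background beside them. The median log2 fold change was 0.10, close to the 0.09 of all genes. Kcnj3, which was called, and Kcnma1, which was not, passed the filter only through shKmt2f libraries. The called genes Cacna2d1, Kcne2 and Kcnh7 also needed shKmt2f libraries to pass, since not all of their control libraries reached 1 TPM. With 1 TPM required in all 7 libraries, 6 of 31 members were higher (19.4%, beside 11.6% of all genes so tested). The 9 called genes described here were Kcnd3, Cacna2d4, Kcnb2, Scn8a, Kcnh7, Scn3a, Kcnj3, Kcne2 and Cacna2d1. Group ranges lay wholly apart for 11 tested members that were higher and 2 that were lower in shKmt2f libraries, where the same occurred upward in 19.2% and downward in 9.67% of all genes tested. The calls rest on few libraries, and the settings in which they were lost are given further on.

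**Figure D1:**
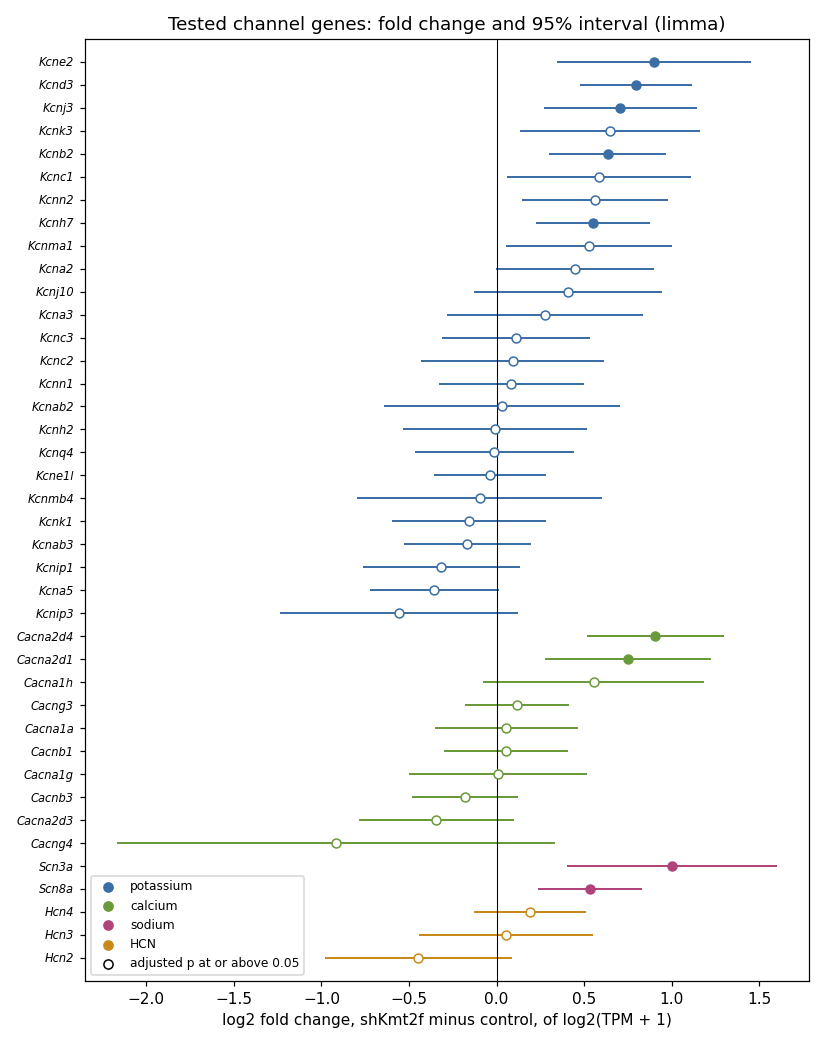
Log2 fold change of summed TPM, shKmt2f minus control, for 40 tested channel genes, ordered within their family; points are limma estimates, lines their 95% intervals, and filled points passed an adjusted p of 0.05. The 9 filled points lie between 0.53 and 1.00, and Cacng4 has the lowest estimate, at -0.92, with the widest interval.

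HCN genes pass a cation current that begins on hyperpolarisation, and Hcn4, Hcn3 and Hcn2 did not pass the test, nor an unadjusted limma p of 0.05. Hcn4, a slow-gating pore known from cardiac pacemaker cells and bipolar cells, stood at 2.05, 2.03 and 2.26 TPM in controls and 2.29, 2.55, 2.39 and 3.03 TPM in shKmt2f libraries. The ranges of Hcn4 were just apart, with a log2 fold change of 0.19 (95% interval -0.12 to 0.51, limma adjusted p = 0.382). Hcn3 averaged 2.18 ± 0.736 TPM (mean ± SD, here and further on, n = 3) in control against 2.29 ± 0.686 TPM (n = 4) in shKmt2f libraries, and Hcn2, a pore found widely in the brain, 1.35 ± 0.430 against 0.748 ± 0.441 TPM. Neither separated the groups, and the interval of the Hcn2 fold change ran from -0.98 to 0.08.

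Voltage-gated potassium pores gave 3 calls among 12 tested members, all higher. Kcnd3 codes for a pore of the fast transient (A-type) current that delays firing. It was measured at 1.77, 1.56 and 1.46 TPM in controls and 3.40, 4.06, 3.37 and 3.23 TPM in shKmt2f libraries. The groups were far apart beside their spread, and the mean of 3.52 ± 0.370 TPM was 2.20 times the control mean of 1.6 ± 0.158 TPM. The log2 fold change was 0.80 (limma SE 0.14, adjusted p = 0.0159), and Kcnd3 lies on chromosome 3 from 105452330 to 105674002. Its GC content of 51.6% lay near the median of all tested genes, 50.4%, and it stayed past the threshold after a correction for GC content in each library (0.76, adjusted p = 0.0148).

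Kcnb2 codes for a delayed rectifier pore that repolarises the membrane. Its levels were 1.76, 1.98 and 2.11 TPM in controls and 4.21, 3.67, 3.14 and 3.32 TPM in shKmt2f libraries. The ranges did not overlap, and the log2 fold change was 0.63 (limma SE 0.14, adjusted p = 0.0304; chromosome 1, 15287254 to 15723750). Kcnh7, of the ether-a-go-go related family whose channels hold a slow repolarising current, was found at 0.711, 1.10 and 1.11 TPM against 2.00, 1.79, 1.86 and 1.86 TPM. Those shKmt2f values were nearly level with each other and all above control, a log2 fold change of 0.55 (limma SE 0.14, adjusted p = 0.0380; chromosome 2, 62693414 to 63184287). Kcnh7 holds 40.0% GC and overlaps Gca (17.4 TPM over all libraries) on the opposite strand, and whether reads were assigned by strand is not given in the sources used here.

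The more abundant potassium pores did not pass. Kcnh2, the ether-a-go-go related gene best known from the heart, averaged 17.1 ± 4.85 TPM in controls and 17.0 ± 4.06 TPM in shKmt2f libraries, with a 95% interval of -0.53 to 0.51. Kcnc2, a pore of fast-firing neurons, averaged 6.47 ± 1.80 against 6.90 ± 1.65 TPM. Its relative Kcnc1 stood at 1.25, 2.56 and 2.70 TPM against 3.63, 4.51, 2.57 and 4.10 TPM, so only shKmt2f replicate 3 fell within the control range (log2 fold change 0.58, interval 0.07 to 1.10, adjusted p = 0.115). Among the other tested pores Kcna5 had separate ranges with lower shKmt2f values but was not called.

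Potassium auxiliary subunits held some of the highest channel levels and 1 call among 7 tested members. Kcne2, a small single-pass subunit that alters the gating of several potassium pores, stood at 0.796, 0.996 and 2.14 TPM in controls and 3.66, 3.73, 3.53 and 2.05 TPM in shKmt2f libraries. It was the only called member whose groups overlapped, because shKmt2f replicate 4 lay below control replicate 3. Its log2 fold change was 0.90 (limma SE 0.24, adjusted p = 0.0429), with an exact permutation p of 0.0857, and the gene spans chromosome 16 from 92292389 to 92298129. The X-linked relative Kcne1l averaged 37.5 ± 5.70 TPM in controls and 36.4 ± 3.79 TPM in shKmt2f libraries. Kcnab2, a cytoplasmic beta subunit of the shaker-type pores, averaged 22.2 ± 8.92 against 22 ± 5.48 TPM, and Kcnmb4, a beta subunit of the large-conductance channel, 9.13 ± 3.43 against 8.58 ± 3.40 TPM. For these 3 subunits the 95% intervals of the log2 fold change were -0.35 to 0.28, -0.64 to 0.70 and -0.79 to 0.60.

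Calcium- and sodium-activated potassium genes gave no call at the threshold among 3 tested, 2 of which had an unadjusted p under 0.05. Kcnn1, which codes for a small-conductance pore behind the afterhyperpolarisation, was among the most abundant channel genes at 34.5 ± 0.818 TPM in controls and 37.4 ± 9.41 TPM in shKmt2f libraries. Of the Kcnn1 TPM, 62.6% lay in a 338-base entry listed as protein coding. The spread of the shKmt2f group came mostly from replicate 2, at 50.8 TPM beside 28.7 to 35.9 TPM in the other libraries of the group. Kcnn2 had separate ranges, with 1.01, 1.86 and 2.03 TPM in controls and 2.85, 3.32, 2.56 and 2.61 TPM in shKmt2f libraries, but missed the threshold (log2 fold change 0.56 in limma, adjusted p = 0.0691). After the GC correction it was 0.53 with an adjusted p of 0.0468. Kcnma1, the pore of the large-conductance channel, stood at 0.322, 0.156 and 0.400 TPM against 1.05, 1.14, 0.288 and 1.10 TPM, so that shKmt2f replicate 3 alone lay in the control range.

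Among inward rectifiers 2 of 8 genes entered the test. Kcnj3 codes for a subunit of the channels that G proteins open after transmitter binding. Its levels were 0.148, 0.607 and 0.376 TPM in controls and 1.72, 1.33, 1.18 and 0.780 TPM in shKmt2f libraries. No control library reached 1 TPM, so the gene passed the filter only through 3 shKmt2f libraries, and its test depended on its being high there. The log2 fold change was 0.71 (limma SE 0.19, adjusted p = 0.0426), the exact permutation p 0.0571 and the position chromosome 2 from 55435970 to 55598145. The GC correction left 0.23 (adjusted p = 0.392), and the correction for GC and length 0.096 (adjusted p = 0.740). Kcnj10, the potassium-buffering channel of Mueller glia, averaged 2.22 ± 0.949 against 3.18 ± 0.665 TPM (adjusted p = 0.266), while Kcnj9 and Kcnj4 stayed below 1 TPM in all 7 libraries.

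Tandem-pore genes, whose channels carry the resting potassium leak, gave no call among the 2 tested, 1 of which had an unadjusted p under 0.05. Kcnk1 averaged 34.0 ± 7.69 TPM in controls and 30.2 ± 5.49 TPM in shKmt2f libraries (log2 fold change -0.16, interval -0.59 to 0.28). Kcnk3, an acid-sensitive leak pore, was at 1.36, 1.53 and 1.16 TPM against 3.09, 1.5, 2.67 and 3.83 TPM. Apart from shKmt2f replicate 2, Kcnk3 was higher than in any control library, with a log2 fold change of 0.65 and a limma adjusted p of 0.0849. Kcnk5 was below the filter, at 0.849 ± 0.312 and 0.640 ± 0.208 TPM.

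Among the 18 members of the inward rectifier, tandem-pore and small-conductance genes, 1 of 6 tested was higher. The higher one was Kcnj3, which was tested only because of its shKmt2f levels. The other 75 members gave 9 of 36, and the groups of genes were not compared by a test.

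**Figure D2:**
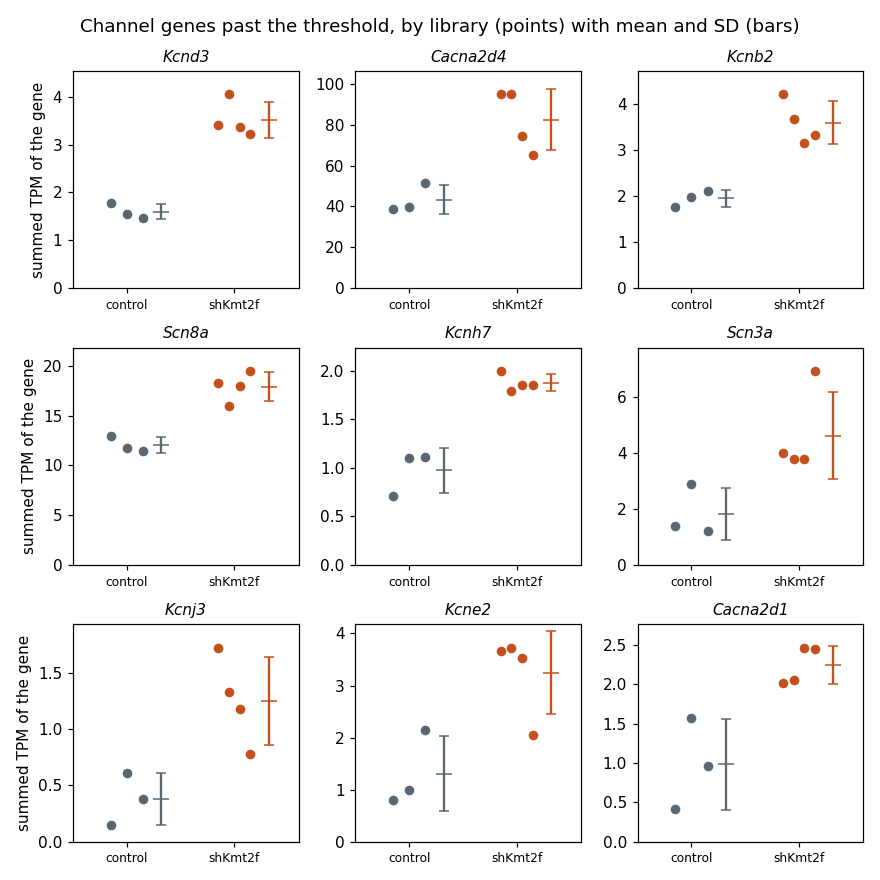
Summed TPM of 9 called channel genes in each of the 3 control and 4 shKmt2f libraries (points, replicate order from left to right), with the mean and SD of each group as bars; each panel has its own scale from 0. Only Kcne2 shows overlapping groups, and Cacna2d4, up to 95 TPM, is by far the most abundant.

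Both sodium pores that could be tested were higher. Scn8a codes for the main pore of mature axon initial segments and nodes. It stood at 12.9, 11.8 and 11.5 TPM in controls and 18.3, 15.9, 18 and 19.5 TPM in shKmt2f libraries. The ranges were apart, and the mean rose from 12.1 ± 0.777 to 17.9 ± 1.48 TPM, by a log2 fold change of 0.53 (limma SE 0.13, adjusted p = 0.0336; chromosome 15, 100869858 to 101045938). Scn3a, a pore most prominent in the embryonic nervous system, stood at 1.39, 2.90 and 1.21 TPM against 3.99, 3.77, 3.77 and 6.92 TPM. Its groups were apart too, although control replicate 2 and shKmt2f replicate 4 each lay well above the rest of their group. The log2 fold change of Scn3a was 1.00 (limma SE 0.26, adjusted p = 0.0401; chromosome 2, 65457118 to 65567627).

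Short transcripts carried most of both sodium sums. In Scn8a 55.9% of the TPM lay in a retained-intron transcript of 326 bases and 22.7% in protein-coding transcripts. With protein-coding transcripts alone the Scn8a fold change was -0.049 (limma adjusted p = 0.848), and with TPM weighted by transcript length before summing it was -0.078 (adjusted p = 0.774), so the direction turned. The 2110-base protein-coding transcript of Scn8a was level, at 1.53 ± 0.287 TPM in controls and 1.68 ± 0.163 TPM in shKmt2f libraries. In Scn3a 80.6% of the TPM lay in a 365-base transcript that is listed as protein coding. Its 8550-base transcript had much less TPM, at 0.438, 0.534 and 0.336 TPM against 0.635, 0.822, 0.756 and 0.986 TPM, with all shKmt2f values above control (exact permutation p = 0.0286).

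Other sodium genes were close to 0. Scn1a averaged 0.0761 and 0.193 TPM, Scn4a 0.0526 and 0.0545 TPM, and the beta subunit gene Scn3b 0.158 and 0.215 TPM in controls and shKmt2f libraries.

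Calcium channel calls fell in the alpha2delta subunits, which raise the number of calcium channels at the membrane and organise synapses. Cacna2d4, the subunit of the photoreceptor ribbon synapse, was the most abundant called gene, at 38.9, 39.6 and 51.6 TPM in controls and 95, 94.8, 74.6 and 65.4 TPM in shKmt2f libraries. All shKmt2f values lay above control, with replicates 1 and 2 higher than 3 and 4. The mean rose from 43.3 ± 7.13 to 82.5 ± 14.9 TPM, by a log2 fold change of 0.91 (limma SE 0.17, adjusted p = 0.0190), and the gene lies on chromosome 6 from 119236526 to 119352407. With 52.1% GC its fold change after the GC correction was 0.89 (adjusted p = 0.0110). It overlaps Lrtm2, at a mean of 6.93 TPM, on the opposite strand.

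Cacna2d1, the subunit that binds gabapentin, stood at 0.419, 1.57 and 0.957 TPM in controls and 2.02, 2.06, 2.47 and 2.45 TPM in shKmt2f libraries. The shKmt2f values were close together and above every control value, with a log2 fold change of 0.75 (limma SE 0.21, adjusted p = 0.0450; chromosome 5, 15934691 to 16374511). Its GC content was 40.5%, and the GC correction left 0.15 (adjusted p = 0.518). Cacna2d3, another alpha2delta gene, had values of 5.02, 7.54 and 5.76 TPM against 5.14, 3.86, 5.67 and 3.72 TPM, which overlapped (log2 fold change -0.34, interval -0.78 to 0.09). Cacna2d2 averaged 0.885 ± 0.302 and 0.404 ± 0.336 TPM, below the filter. Summed over the 4 alpha2delta genes, the level was 45, 49.5 and 59.5 TPM in controls and 103, 102, 83.0 and 71.7 TPM in shKmt2f libraries, mostly from Cacna2d4.

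None of the 3 tested calcium pores passed at the adjusted threshold or at an unadjusted limma p of 0.05. The low-threshold pore gene Cacna1h averaged 6.95 ± 2.11 TPM in control. Its shKmt2f libraries split, at 13.9 and 14.1 TPM in replicates 1 and 2 and 7.79 and 7.57 TPM in replicates 3 and 4 (log2 fold change 0.55, interval -0.07 to 1.18). Its relative Cacna1g averaged 6.51 ± 1.84 against 6.48 ± 1.33 TPM, and Cacna1a, a pore of fast transmitter release, 5.30 ± 1.35 against 5.47 ± 0.589 TPM. The pore gene of the photoreceptor synapse, Cacna1f, which was chosen after its values were seen because Cacna2d4 is its partner there, was nearly undetected, with no library above 0.131 TPM.

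The beta and gamma genes gave no call, and 0 of their 4 tested members had an unadjusted limma p under 0.05. Cacnb3, a cytoplasmic beta subunit that carries pores to the membrane, stood at 9.58, 10.5 and 11.9 TPM in controls and 9.34, 9.37, 9.30 and 8.96 TPM in shKmt2f libraries. Those ranges were just apart, but the log2 fold change was only -0.18 (interval -0.48 to 0.12, limma adjusted p = 0.383). Cacnb1 averaged 1.85 ± 0.417 against 1.95 ± 0.232 TPM, and Cacnb2 stayed at or below 0.472 TPM. Cacng4, which codes for a glutamate receptor partner, had the widest spread, at 26.2, 30.4 and 45.9 TPM in controls and 6.65, 11.6, 30.9 and 33.9 TPM in shKmt2f libraries. Only shKmt2f replicates 1 and 2 fell below the control range, the replicates in which Cacna1h was highest (Cacng4 log2 fold change -0.92, interval -2.16 to 0.33, adjusted p = 0.284). Cacng3 was level at 22.9 ± 2.53 and 24.8 ± 2.06 TPM, and Cacng8 averaged 0.696 ± 0.198 and 0.484 ± 0.287 TPM.

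Set side by side, the sodium family had both its tested genes called higher, the potassium family 5 of 26 and the calcium family 2 of 10, beside 10.4% of all genes tested. Median log2 fold changes were 0.77 for sodium, 0.10 for potassium and 0.05 for calcium genes, the last of which turned to -0.03 under median-ratio scaling and without control replicate 1. The sodium median was 0.35 with TPM weighted by length, 0.11 without the filter and 0.03 with transcripts of at least 1000 bases only, and the potassium median turned to -0.02 without shKmt2f replicate 2. Potassium and calcium medians lay near the 0.09 of all genes. The summed sodium level was 14.6, 15.4 and 13.0 TPM in controls and 22.7, 19.8, 22.4 and 27.1 TPM in shKmt2f libraries, which did not overlap. Potassium sums overlapped, at 177, 196 and 239 TPM against 212, 256, 196 and 194 TPM, and so did calcium sums, at 120, 139 and 169 TPM against 173, 179, 176 and 161 TPM. Each family sum is weighted to its most abundant gene, so the sodium sum follows the 326-base Scn8a transcript.

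The 51 members below the filter were compared one by one with the exact permutation test. Ranges lay apart with higher shKmt2f values for 9 of them, Cacnb4, Kcnk10, Kcnj5, Kcnj6, Kcnip2, Kcnv2, Kcna4, Kcnh6 and Kcnh8, where 7.08% of all genes below the filter did so. That was 17.6% of the 51. Lower values with separate ranges were found for 5.88% of them, Cacng1 and Cacng7 included, beside 4.99% of those genes. The clearest by level was Kcnv2, a silent subunit that joins photoreceptor potassium channels and has no current alone. It was listed at 0.159, 0.562 and 0.385 TPM in controls and 1.09, 1.28, 0.768 and 0.826 TPM in shKmt2f libraries. No control value reached the shKmt2f range, and the mean went from 0.369 ± 0.202 to 0.992 ± 0.239 TPM (exact permutation p = 0.0286, the smallest possible). The other silent subunits Kcnf1 and Kcng4 stayed near 0.279 and 0.0688 TPM in controls and 0.242 and 0.0791 TPM in shKmt2f libraries.

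At the level of single transcripts the 93 genes had 211 entries, of which 69 could be tested. Of these 3 were called higher and 0 lower, where 1.44% of the 37024 tested transcripts were higher and 0.794% lower. Protein-coding transcripts held 58.9% of the summed channel TPM. Short entries held most of the TPM of several named genes. These included Kcnc1 (77.8% in a 531-base entry), Cacng4 (73.4%, 422 bases), Cacna1a (53.8%, 740 bases) and Kcnab2 (53.0%, 347 bases). By contrast, Kcnk1 had 94.5% of its TPM in a 2235-base transcript. A called Cacna2d4 transcript was a 414-base retained-intron entry that held 51.1% of that gene's TPM, at 18.5, 18.4 and 24.7 TPM against 47.6, 49.6, 41.0 and 35.2 TPM. The 3710-base protein-coding transcript of Cacna2d4 moved alike, at 3.10, 3.15 and 4.71 TPM against 9.56, 8.88, 7.11 and 6.51 TPM (log2 fold change 0.96), with an adjusted p of 0.0517 among transcripts. Since only 11.4% of the Cacna2d4 sum lay in protein-coding transcripts, its high summed level is mostly that of other entries.

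Another called transcript belonged to Cacna1h. Its 8230-base entry was listed at 0 in all 3 control libraries and at 4.71, 6.14, 3.02 and 1.66 TPM in shKmt2f libraries (log2 fold change 2.19 in limma, adjusted p = 0.0286). That entry passed the filter only through shKmt2f libraries, and its test depended on its being high there. The 8220-base entry went the opposite way, at 2.06, 2.90 and 3.75 TPM in controls and 0, 0, 0 and 1.27 TPM in shKmt2f libraries. In the reference transcripts the longer sequence begins with the whole of the shorter and adds 10 bases at the 3′ end, so the entries differ in nothing else. Their sum was 2.90 ± 0.841 TPM in controls and 4.20 ± 1.53 TPM in shKmt2f libraries, with overlapping values, a log2 fold change of 0.39 (limma SE 0.27, adjusted p = 0.422) and an exact permutation p of 0.229.

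**Figure D3:**
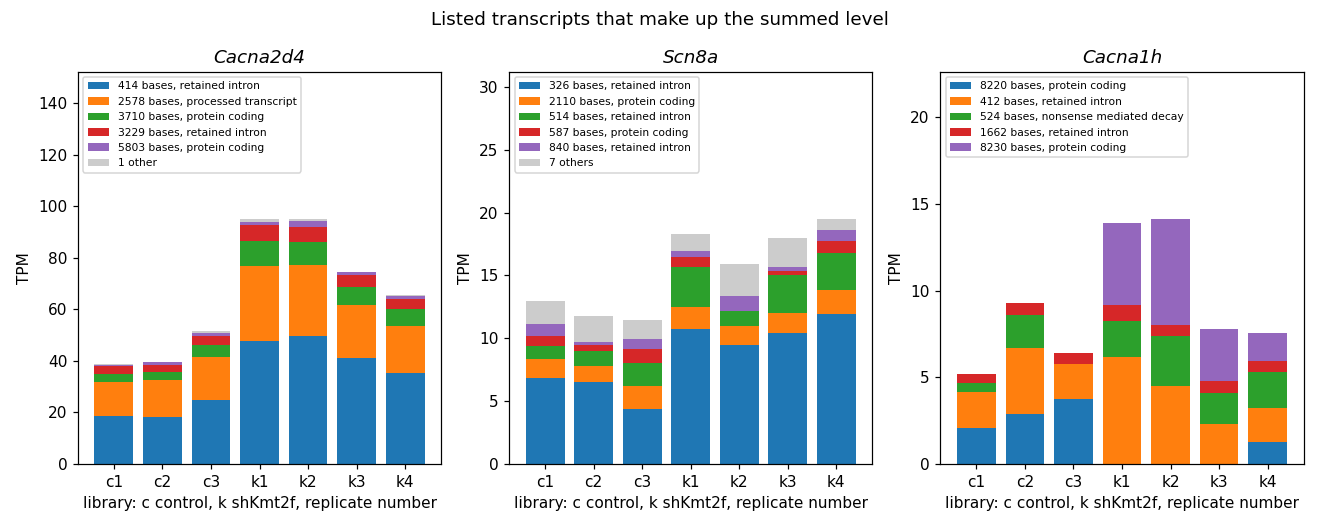
TPM of the listed transcripts of Cacna2d4, Scn8a and Cacna1h stacked in each library (c, control; k, shKmt2f), with the 5 transcripts of the highest control mean coloured and the rest in grey. The shortest retained-intron transcripts form the largest layer of Cacna2d4 and Scn8a, and in Cacna1h the 8220-base layer of the control libraries gives way to the 8230-base layer.

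In the authors' deposited table, 16 transcripts of 13 channel genes had a q under 0.05, 15 with an effect above 0 and 1 below 0. Over all transcripts of that table, 3.43% had such a q with an effect above 0 and 2.09% with an effect below 0. The 7169-base Kcnd3 transcript had an effect of 0.78, read here as natural log, and q = 2.5e-07 in the authors' deposited table. For the 8230-base Cacna1h entry the authors' deposited table gave an effect of 7.98. Genes not called in the gene fit that had a transcript with such a q included Kcnv2 with an effect of 1.01, Kcnk3 with 0.70 and Cacna1g with 6.07. The Cacna1g effect was that of an 8104-base entry. It was listed at 0 TPM in the control libraries and at 0.389, 0.322, 0.578 and 0.997 TPM in shKmt2f libraries. Of its 31-base stretches, 100% also occur in other listed Cacna1g transcripts. The summed Cacna1g level was 6.51 TPM in controls and 6.48 TPM in shKmt2f libraries.

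Promoter sequence was looked at because Setd1a acts on a promoter mark that is commonly richest where CG dinucleotides are dense. RefSeq windows on GRCm38.p6 were found for 66 of the 93 members and for 6 of the called genes, with no entry for Cacna2d4, Kcnb2 and Scn3a in the table used. The 250 bases before the start are printed for 3 called genes that span the range, with each CG in capitals. Cacna2d1 had the most CG of the called genes, Kcnd3 stood near the median, and Kcnj3 had the fewest among called genes with a single window.
Cacna2d1, chr5:15934441-15934690, plus strand: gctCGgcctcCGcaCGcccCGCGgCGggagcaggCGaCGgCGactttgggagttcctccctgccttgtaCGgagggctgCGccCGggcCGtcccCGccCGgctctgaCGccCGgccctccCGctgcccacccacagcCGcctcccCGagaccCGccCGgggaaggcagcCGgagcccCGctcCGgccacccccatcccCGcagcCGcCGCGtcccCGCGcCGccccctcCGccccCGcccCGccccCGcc
Kcnd3, chr3:105451640-105451889, plus strand: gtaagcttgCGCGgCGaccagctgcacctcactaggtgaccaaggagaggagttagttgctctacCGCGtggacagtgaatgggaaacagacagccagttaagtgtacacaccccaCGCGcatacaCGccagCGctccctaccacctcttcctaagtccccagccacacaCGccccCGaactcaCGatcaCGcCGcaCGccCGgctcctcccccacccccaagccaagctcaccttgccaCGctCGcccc
Kcnj3, chr2:55435720-55435969, plus strand: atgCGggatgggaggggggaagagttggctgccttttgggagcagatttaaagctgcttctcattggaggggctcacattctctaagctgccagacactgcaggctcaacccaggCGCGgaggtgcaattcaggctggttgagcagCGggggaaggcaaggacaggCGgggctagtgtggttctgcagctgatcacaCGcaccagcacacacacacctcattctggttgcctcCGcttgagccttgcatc

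These windows hold 36, 18 and 7 CG dinucleotides. The median was 16 over the 27 tested channel genes with an entry and 17 over all 8529 tested genes with an entry, so the called genes covered both CG-dense and CG-poor promoters. GGGCGG was present on either strand in 59.3% of the channel windows and 61.3% of all windows. CAGATG was present in 14.8% and 9.5%, and TAATCC in 0% and 5.05%. Such matches describe letters and not binding.

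The called genes were long and low in GC. Their median GC content was 45.5%, beside 53.8% for the tested channel genes and 50.4% for all genes tested. Their median transcript length was 4323 bases against 1986 and 1592 bases, and their median genomic span 199 kb against 59.6 and 21.4 kb. Since the groups of libraries differed in their GC slopes, each library was corrected for GC content with a loess curve and the fit repeated. Then 3 of the 42 channel genes were higher, Kcnd3, Cacna2d4 and Kcnn2, where 5.08% of all genes were. After a correction for GC and length the 3 were Kcnd3, Cacna2d4 and Scn8a, with 5.24% of all genes higher, and Kcnh7 turned to -0.19 (adjusted p = 0.499). The slopes on GC did not overlap between the groups, so GC slope and group cannot be told apart in these libraries.

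**Figure D4:**
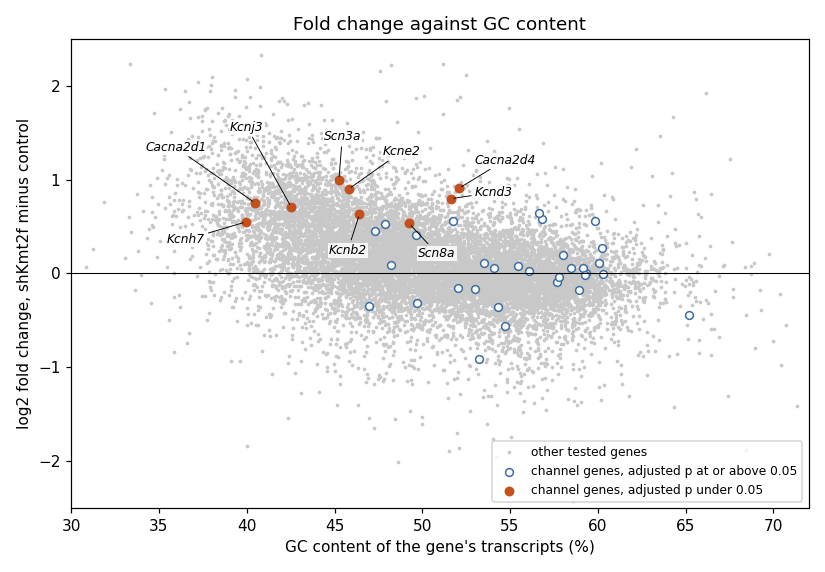
Log2 fold change (shKmt2f minus control) of each tested gene against the mean GC content of its transcripts in percent; grey points are other genes, open circles channel genes at or above an adjusted p of 0.05, filled circles 9 called channel genes, and 18 genes lie outside the plotted range. Called channel genes sit mostly at low GC, where most grey points lie above 0, with Kcnd3 and Cacna2d4 at 51.6% and 52.1% GC.

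Leaving out libraries separated the calls further. Kcnd3 was lost without control replicate 3 (adjusted p = 0.0505) or shKmt2f replicate 1 (0.0522). Cacna2d4 was lost without control replicate 1 (adjusted p = 0.0669), shKmt2f replicate 1 (0.0583) or shKmt2f replicate 2 (0.0551). Kcne2 was called only without control replicate 3 or shKmt2f replicate 4, and the other 6 genes only without control replicate 2 (Kcnj3 fell below the filter in 3 of the 7 fits). Over all genes the number of calls also changed with the library left out, from 283 without shKmt2f replicate 1 to 3004 without control replicate 2. Fold changes of the called genes stayed above 0 in every one of these left-out fits.

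**Figure D5:**
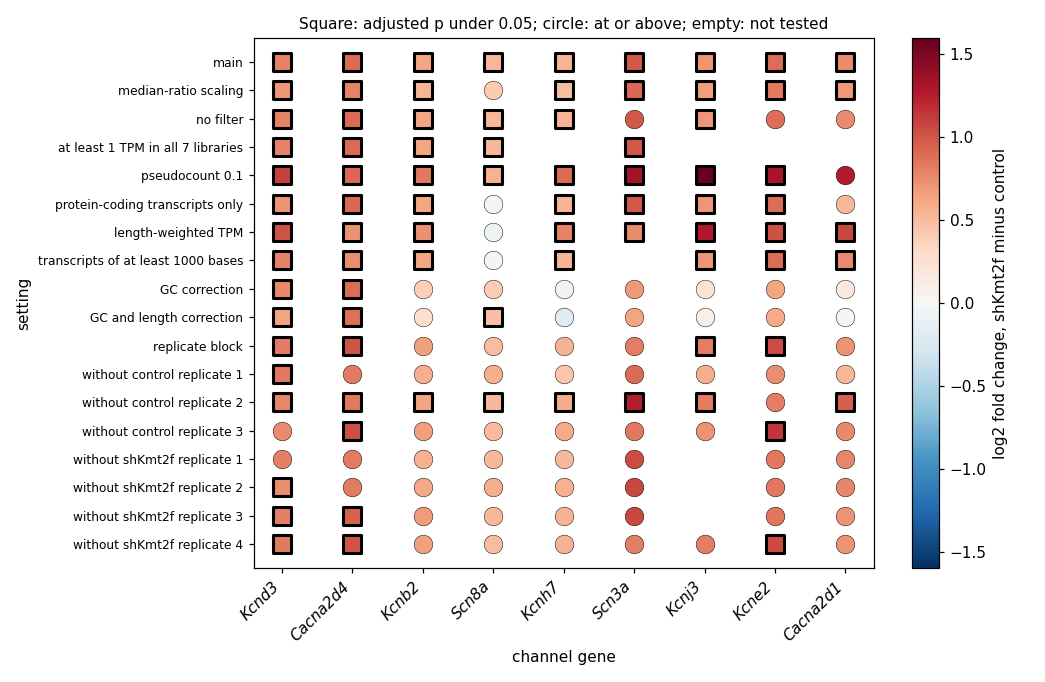
Log2 fold change of 9 called genes (columns) in each setting of the analysis (rows), by colour; squares passed an adjusted p of 0.05, circles did not, and empty places were not tested. The columns of Kcnd3 and Cacna2d4 are squares in every setting that keeps all 7 libraries, and the remaining columns are mostly circles once a library is left out.

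Partners of channels were followed in a list of scaffolding, anchoring and modulating proteins. Of 30 tested, 3 were higher and 1 lower, shares near the 10.4% and 3.69% of all genes. Cntn1, a contactin that associates with sodium and potassium channels on axons, rose from 5.04 ± 1.89 to 11.7 ± 1.67 TPM (log2 fold change 1.11 in limma, adjusted p = 0.0207). Ank3, which codes for the ankyrin that anchors sodium channels at the axon initial segment, rose from 40.8 ± 8.38 to 69.0 ± 9.25 TPM (adjusted p = 0.0291). Pex5l, the brain partner of HCN channels, rose from 2.36 ± 0.781 to 4.59 ± 0.780 TPM (adjusted p = 0.0399). Calm3, 1 of the calmodulin genes, fell from 196 ± 15.7 to 137 ± 8.96 TPM (adjusted p = 0.0205). The other 26 partners did not pass.

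Outside the voltage-gated families, 3 of 26 tested channel genes were higher, near the 10.4% of all genes. Cngb3 codes for a subunit of the cyclic nucleotide-gated channel of cones. It stood at 1.13, 2.25 and 1.18 TPM in controls and 4.20, 4.20, 4.70 and 4.62 TPM in shKmt2f libraries (log2 fold change 1.13 in limma, adjusted p = 0.0129). Ano6, a calcium-activated channel and scramblase, rose by a log2 fold change of 0.62 and Clcn4, a chloride exchanger of intracellular membranes, by 0.47. Of 14 ion pumps and gradient transporters tested, 1 was higher, below that share.

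Markers of retinal cell types moved in the same libraries. Their counts of calls, here and further on, stand beside 10.4% higher and 3.69% lower of all genes tested. Ganglion cell markers gave 6 higher of 8 tested, with Gap43 at 10.6 against 22.1 TPM and Nefl at 0.808 against 2.15 TPM, and their summed level was 77.0 to 120 TPM in controls and 119 to 148 TPM in shKmt2f libraries. Rod markers gave 2 higher of 8 (Prdm1 and Crx; summed 169 to 223 against 256 to 373 TPM), cone markers 2 of 6 (Gnat2 and Otx2; 548 to 561 against 725 to 869 TPM) and bipolar markers 3 of 6 (Pcp2, Lhx4 and Isl1, which the ganglion cell list also holds; 28.8 to 36.6 against 48.0 to 57.1 TPM). Horizontal cell markers gave 2 of 4, Onecut1 and Ndnf (12 to 19.4 against 21.3 to 29.0 TPM). Amacrine markers gave 1 of 9, near the share of all genes (404 to 475 against 442 to 503 TPM). Onecut1 and Onecut2 passed the filter only through shKmt2f libraries, and Nefl and Isl1 also needed those libraries to pass. None of the tested markers in these 6 lists was called lower. Among defining genes, Pou4f1, Pou4f2, Ebf3 and Sncg of ganglion cells, Arr3 of cones and Lhx1 of horizontal cells were under 1 TPM in every library. Pou4f3 of ganglion cells, Grm6, Vsx1 and Bhlhe23 of bipolar cells, Opn1mw of cones and Pde6a of rods were not listed.

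Of 13 progenitor markers tested, Ccnd1, Hes5 and Dapl1 were lower and the other 10 did not pass, among them Pax6 with a log2 fold change of 0.11 and Sox2 with 0.03. The 13 summed to 1404 to 1647 TPM in controls and 1115 to 1244 TPM in shKmt2f libraries. Neurogenic progenitor markers gave 3 higher (Neurod4, Btg2 and Neurod1) and 1 lower (Hes6) of 11, with sums of 2052 to 2697 against 2666 to 2979 TPM. In the same list Atoh7, a gene needed for ganglion cells, stood at 99.0, 101 and 312 TPM in controls and 20.4, 37.3, 429 and 428 TPM in shKmt2f libraries. Its shKmt2f libraries split into replicates 1 and 2 against 3 and 4, as those of Cacng4 and Cacna1h did. Mueller glia markers, with Kcnj10 among them, gave 1 lower (Glul) of 9, at 1193 to 1515 against 1345 to 1587 TPM in sum. The part of these cell type markers in the channel results was not tested.

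Markers of cells from outside the neural retina were also followed. Pigment epithelium markers gave 1 higher (Dct) of 1 tested, summed 4.33 to 5.03 against 5.95 to 8.15 TPM, with Rpe65 not listed. Astrocyte markers gave 0 of 1 (4.27 to 6.49 against 3.15 to 7.30 TPM, with Pax2 and S100b not listed), and endothelial and pericyte markers 0 of 3 (62.8 to 106 against 73.8 to 110 TPM, mostly Kdr and Cldn5, with Cdh5 not listed and Pecam1 under 1 TPM throughout). Only 1 of 9 microglia markers was listed, C1qa, at 0.350 to 1.10 against 0.816 to 1.54 TPM. Lens markers summed to at most 0.502 TPM, and no red blood cell marker was listed.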

How the data were processed

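Per the labels' protocols, RNA of EGFP-sorted retina cells was turned into cDNA by SMART-Seq v4 and into libraries by tagmentation with a Nextera kit. Salmon 0.11.3, sleuth 0.30.0 and the build GRCm38.p6 are named in the submitters' processing notes. Each deposited table gives the TPM of every transcript in 1 library. The authors' comparison stands beside it per the file headers, as a p-value, a q-value and a natural log effect, identical in all 7 tables. Of 55475 rows, 71 without TPM were left out. No per-sample column was unused. Some genes are not reported here.

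From the deposited TPM, sums per gene were tested with limma 3.58.1 in R 4.3.3 (trend and robust options, group as the only term, two-sided, Benjamini-Hochberg over all genes tested), after checks on simulated data. Positions, transcript lengths and GC content come from the GRCm38 annotation. The members, gene lists and tests were chosen with earlier results of these data known. Named genes are all called members and up to 3 further members of the highest mean in each role group, and up to 4 passing members of other lists. Alternatives were median-ratio scaling, no filter, 1 TPM in all libraries, a pseudocount of 0.1, protein-coding transcripts, TPM weighted by length, loess corrections on GC and on length (span 0.3), the replicate number as a block and leaving out each library. Summing only transcripts of at least 1000 bases and summing the long Cacna1h entries were chosen after seeing the data. TPM keeps no depth, so no counting interval is given.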

Additional observations from a re-analysis of the deposited data

Results flagged for a closer look

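In the shKmt2f group, 4 of the 40 tested channel genes checked had 1 library far from the other 3, by Dixon's criterion for 4 values. Chance flags about 1 group in 20, and the controls, with 3 libraries, were not checked. Replicate 4 stood apart for 3 of them. It had 6.92 TPM of Scn3a, above the others of its group, and 3.31 TPM of Hcn3, also above them, whereas its 2.05 TPM of Kcne2 lay below them. Replicate 3 had 0.288 TPM of Kcnma1, below the rest of the group. Of these genes Scn3a and Kcne2 were called. Without shKmt2f replicate 4 the log2 fold change of Scn3a was 0.82 (limma adjusted p = 0.0798) and that of Kcne2 1.05 (adjusted p = 0.0495).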

How the results depend on the processing

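TPM gives no depth, so values under 1 TPM carry an error that the tables do not show, and a sum over a gene depends on how reads were split among short transcripts. The 10 higher channel genes became 6 with 1 TPM required in all libraries and 3 with the correction for GC or for GC and length; the 0 lower ones remained 0 in these settings. Over all genes the 1295 higher calls became 633 and 652 under those corrections, and the 460 lower ones 811 with median-ratio scaling and 941 with length-weighted TPM. Potassium calls (5) became 2 with 1 TPM in all libraries, 2 with the GC correction and 1 with GC and length. Sodium calls (2) became 1 with median-ratio scaling, no filter, protein-coding transcripts, length weighting, or GC and length, and 0 with transcripts of at least 1000 bases or the GC correction. Calcium calls (2) became 1 with no filter, 1 TPM in all libraries, a pseudocount of 0.1, protein-coding transcripts, GC, or GC and length. The 8230-base Cacna1h transcript went from 2.19 to 0.39 when summed with the 8220-base one. Signs turned for Kcnh7 under the GC correction (-0.072) and with length (-0.19), and for Scn8a with protein-coding transcripts (-0.049) and length weighting (-0.078). The cause of these changes was not tested. Of the single-gene comparisons with alternatives, 448 kept their side of the threshold and sign, 66 lost and 5 gained the call.

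Leaving out 1 library gave 1 to 10 higher channel genes and 0 lower ones. The ranges were 0 to 5 for potassium, 0 to 2 for sodium and 0 to 2 for calcium genes, and over all genes 144 to 2432 higher and 131 to 572 lower.

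The replicate numbers are not stated to pair the libraries. Same-numbered libraries of the groups correlated at 0.079, 0.065 and 0.060 in their deviations from the group means, and none was closest to its own number. With so few libraries, these correlations cannot decide whether libraries of the same replicate number shared a source. With the replicate block, a term for that number, 5 channel genes were higher and 1, Cacng4, lower (log2 fold change -1.23, limma adjusted p = 0.0170). Replicate number 4 occurs only in the shKmt2f group, so its block term takes up that library. That library then adds nothing to the group difference. Its Cacng4 level of 33.9 TPM lay within the control range of 26.2 to 45.9 TPM. Under the block 3 potassium, 0 sodium and 1 calcium genes were higher, and over all genes 1044 were higher and 333 lower.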
